A study of Mus musculus with 5 samples.

Results

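The genes described here encode the proteins that sense cyclic AMP in the cell, namely the subunits of protein kinase A (PKA), 2 of its small inhibitor proteins and the EPAC exchange factors, in mouse lung. The members were the probe sets whose only gene symbol in the platform annotation was Prkaca, Prkacb, Prkar1a, Prkar1b, Prkar2a, Prkar2b, Rapgef3, Rapgef4, Pkia or Pkig. This gave 29 of 45101 probe sets, for 9 of 18194 measured genes, because Rapgef4 (EPAC2) was the symbol of 0 probe sets and is not analysed here. Probe sets were taken by name alone and no measured value entered that rule, but the members were listed with earlier results of these data known.

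Cyclic AMP is made by adenylyl cyclases and broken down by phosphodiesterases, among them PDE4B and PDE4D. PKA at rest is a tetramer in which regulatory subunits hold catalytic subunits inactive, and cyclic AMP bound to the regulatory subunits frees the catalytic ones. EPAC proteins are a second class of sensor, exchange factors that load the small GTPase Rap1 with GTP when they bind cyclic AMP. In lung these pathways relax airway smooth muscle and tighten endothelial junctions.

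Whole lungs of naive female mice were profiled with 1 array for each of 5 strains. C57 was C57BL/6J itself. The other 4 were lines wild type or knockout for PDE4B, named 4B(+/+) and 4B(-/-), or for PDE4D, named 4D(+/+) and 4D(-/-), all of C57BL/6 × 129/Ola origin with at least 11 generations of backcrossing to C57BL/6J. No mouse had received the elastase that causes emphysema in the model the series is named for. RNA of 3 of 5 lungs per strain was mixed before labelling, so each value is that of a pool of 3 mice and the spread between animals was not measured. The labels state neither the animals' ages nor which part of each gene was deleted.

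Values are RMA intensities on a linear scale, and with a single array a strain no difference could be checked against replicates. An intensity of 64 was taken as the floor, and 11500 genes reached it in at least 1 array in their brightest probe set. The median intensity was 45.4 to 46.6 in the 5 arrays, and the 3′ to 5′ ratio of the Gapdh control, a sign of RNA quality, was 1.31 in 4D(+/+), 1.37 in 4B(+/+), 1.57 in 4B(-/-), 1.72 in C57 and 1.77 in 4D(-/-). The same ratio of the Actb control ran otherwise, from 1.62 in 4B(+/+) to 1.88 in C57. Both targeted genes were still detected, Pde4d at 386 in 4D(-/-) against 456 to 523 in the other arrays and Pde4b, in its brightest probe set, at 457 in 4B(-/-) against 438 to 558. The 2 dimmer Pde4b probe sets were lowest in 4B(-/-), at 397 against 461 to 490 and at 164 against 199 to 258. Since probes that lie outside a deletion check nothing, the labels are taken as given. Marker genes of alveolar type 2 cells were bright in every array, with a summed intensity of 67477 to 73623 over 7 genes. None of the 10 listed genes shares a chromosome with Pde4b or Pde4d in the RefSeq gene table (0 and 0 of 10).

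All 9 measured genes reached the floor, in 22 of their 29 probe sets. The other 7 probe sets read between 8.42 and 48.6 in all arrays. They are used further only in the alternative that takes the median of each gene's probe sets. Among the 22, 15 had a different value in each array and 7 held an exact tie between arrays, which comes from the summary of few arrays and sets small differences to 0. Intensities of different probe sets cannot be set against each other as levels, so each is followed across the arrays.

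**Figure D1:**
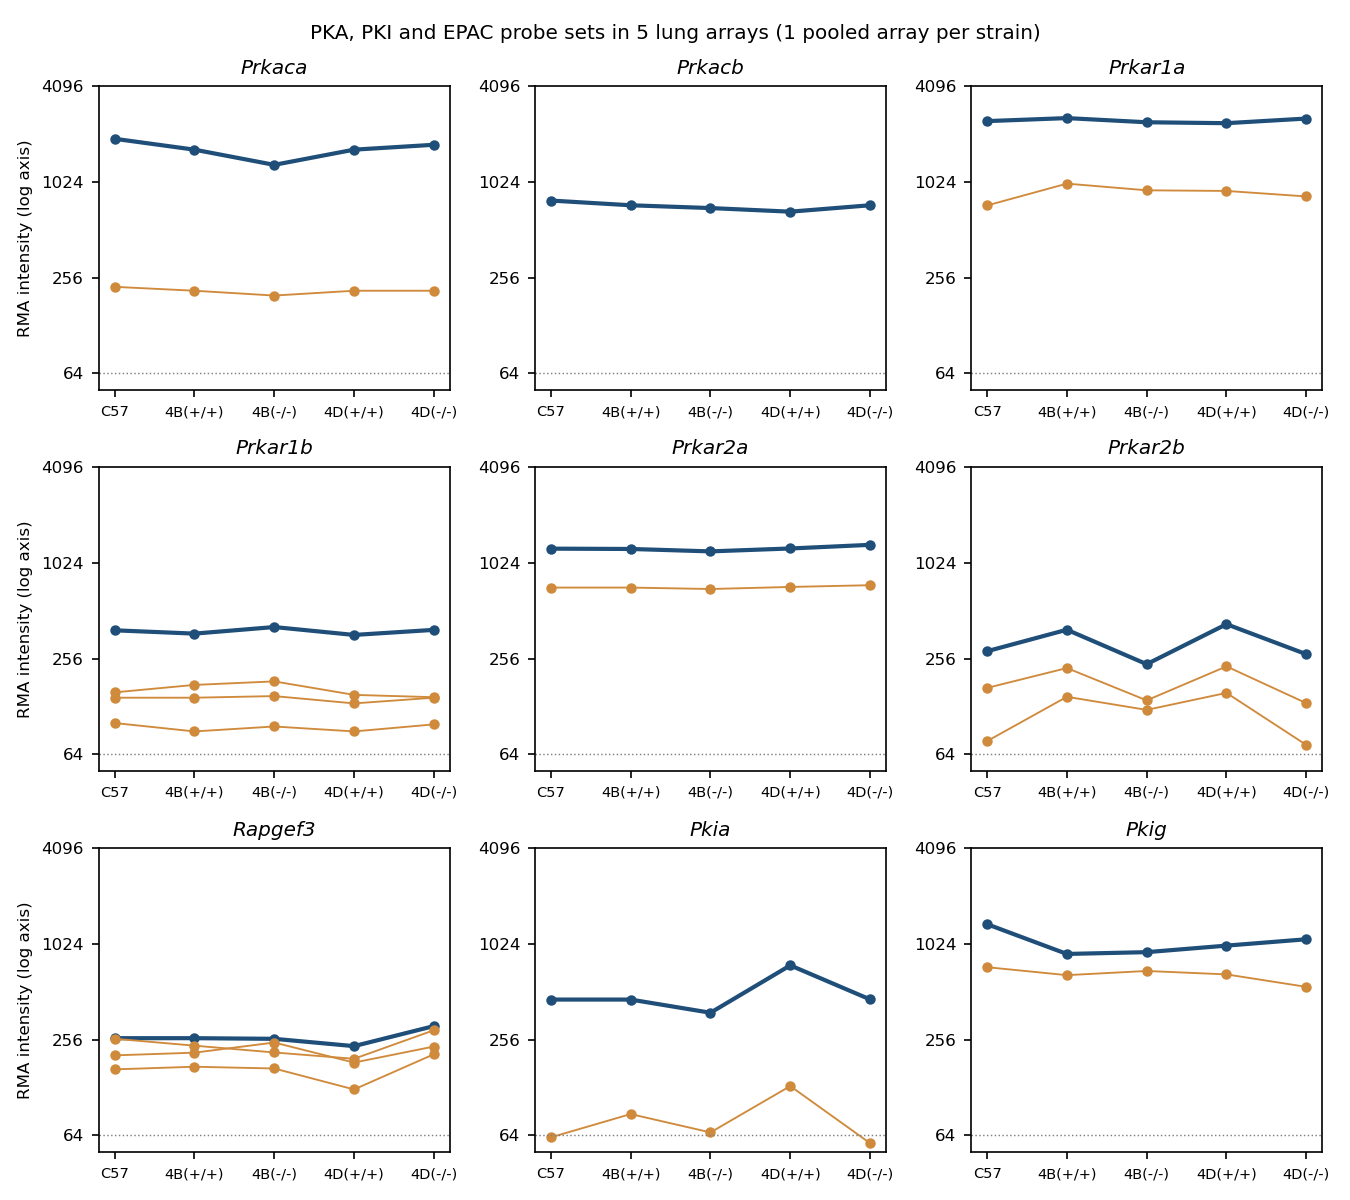
RMA intensity (log axis, each point 1 array of pooled RNA) of the 22 probe sets over the floor, by gene and strain; dark lines are the brightest probe set of a gene, orange lines its others, and the dotted line is the floor of 64. Prkar2a runs flat between 1208 and 1328, whereas Prkar2b peaks in both wild-type lines and Pkia peaks in 4D(+/+) at 749.

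The promoters of 3 members are shown to give the sequence context of the cyclic AMP response, whose transcription factor CREB binds the palindrome TGACGTCA and its core TGACG. The windows hold 250 bases before and 50 after a gene's start, from RefSeq on build GRCm38.p6, and capitals mark the core on either strand. Prkar2b and Rapgef3 are shown because all 3 probe sets of the first were lower, and all 4 of the second over the floor higher, in 4D(-/-) than in 4D(+/+) by at least 1.26-fold, and Prkar1a because it alone of the 9 members with a listed promoter held the palindrome.
Prkar1a, chr11:109650699-109650998, plus strand: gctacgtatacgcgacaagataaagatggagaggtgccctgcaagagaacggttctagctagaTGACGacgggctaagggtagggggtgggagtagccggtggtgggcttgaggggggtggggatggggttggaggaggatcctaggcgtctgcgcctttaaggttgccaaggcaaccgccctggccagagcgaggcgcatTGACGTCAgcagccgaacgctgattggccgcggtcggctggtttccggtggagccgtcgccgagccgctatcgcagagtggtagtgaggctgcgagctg
Prkar2b, chr12:32061228-32061527, minus strand: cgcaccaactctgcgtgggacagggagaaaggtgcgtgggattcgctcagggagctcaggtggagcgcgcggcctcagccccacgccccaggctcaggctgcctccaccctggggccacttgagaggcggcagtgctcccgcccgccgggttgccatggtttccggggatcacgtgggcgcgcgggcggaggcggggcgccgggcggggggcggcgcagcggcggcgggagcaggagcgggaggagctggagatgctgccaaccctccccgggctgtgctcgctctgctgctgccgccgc
Rapgef3, chr15:97767617-97767916, minus strand: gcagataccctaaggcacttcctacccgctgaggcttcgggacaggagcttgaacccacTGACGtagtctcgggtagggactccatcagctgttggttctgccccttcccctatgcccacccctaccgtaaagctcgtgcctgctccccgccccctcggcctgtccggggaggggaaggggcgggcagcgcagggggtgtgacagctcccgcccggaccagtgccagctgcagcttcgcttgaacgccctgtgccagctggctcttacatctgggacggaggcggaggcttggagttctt
The Prkar1a window is 1 of 6 starts of that gene, and its palindrome begins at position -49, where 0 is the first transcribed base. The Rapgef3 window held 1 core at position -191, and neither of the 2 Prkar2b windows held any. In all, 9 of 24 member windows held the core and 2 of 24 the palindrome, against 20.8% and 1.79% of 32851 windows of all genes. The 2 windows with the palindrome overlap and hold the same single site. Pkia has no window in the table used. A match is a description of letters and not of binding.

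The catalytic subunits carry the kinase activity. The brightest Prkaca probe set (1447720_x_at) read 1908 in C57, 1630 in 4B(+/+), 1308 in 4B(-/-), 1630 in 4D(+/+) and 1749 in 4D(-/-). It was lowest in 4B(-/-), 1.25-fold under 4B(+/+), with the 2 wild-type lines tied. The other Prkaca probe set was also lowest in 4B(-/-), at 197, but its remaining values spanned only 212 to 224, so both were lowest in 4B(-/-) and highest in C57 while their sizes of difference disagreed. The suffix of the brighter one marks probes that can match other transcripts. Prkacb, the beta catalytic subunit, read 780 in C57, 729 in 4B(+/+), 700 in 4B(-/-), 664 in 4D(+/+) and 729 in 4D(-/-), a spread of 1.17-fold over the 5 arrays. A range at least that wide was seen in 62.7% of all genes over the floor, so Prkacb was among the steadier genes. The 4B(-/-) array in which Prkaca was lowest also held more RNA of thymus and T-cell markers, 6 of 8 of which were at least 1.5-fold higher than in 4B(+/+), with sums of 1780 against 922 and a median log2 difference of 0.94 beside 0.01 for all genes. The part of those cells in the Prkaca value was not tested.

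Prkar1a and Prkar1b encode the type I regulatory subunits, largely soluble and the most sensitive to cyclic AMP. The brightest Prkar1a probe set read 2464 in C57, 2574 in 4B(+/+), 2423 in 4B(-/-), 2391 in 4D(+/+) and 2557 in 4D(-/-), a spread of 1.08-fold. Its second probe set over the floor, 1425550_a_at, read 727 in C57 and 828 to 997 in the other 4 arrays, with 4B(+/+) 1.37-fold above C57. The 2 probe sets thus disagreed on C57 against the lines. Prkar1b, better known from brain, had 4 probe sets over the floor, and the brightest read 385 in C57, 367 in 4B(+/+), 404 in 4B(-/-), 360 in 4D(+/+) and 388 in 4D(-/-). All 4 of its probe sets were higher in 4B(-/-) than in 4B(+/+), by 1.02-fold to 1.10-fold, and the largest difference of any of them in either knockout comparison was 1.11-fold.

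Type II regulatory subunits bind to A-kinase anchoring proteins (AKAPs), which place PKA at membranes and organelles. Prkar2a was the steadiest pair of probe sets, the brightest reading 1256 in C57, 1251 in 4B(+/+), 1208 in 4B(-/-), 1260 in 4D(+/+) and 1328 in 4D(-/-). The 3 wild-type arrays lay between 1251 and 1260, and the second probe set spanned 701 to 740.

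Prkar2b, the type II subunit known for its abundance in fat and brain, was the regulatory subunit that differed most. Its brightest probe set (1456475_s_at) read 285 in C57, 389 in 4B(+/+), 236 in 4B(-/-), 421 in 4D(+/+) and 273 in 4D(-/-). A second one (1438664_at) read 167, 223, 140, 229 and 134 in the same order of arrays. In both, the wild-type lines were high and C57 and the knockouts low, and each knockout lay below all 3 wild-type arrays. The brightest was 1.65-fold lower in 4B(-/-) than in 4B(+/+) and 1.54-fold lower in 4D(-/-) than in 4D(+/+), and the second 1.60-fold and 1.70-fold lower. A difference as large as that of the brightest was seen in 0.817% of genes over the floor in the PDE4B comparison and in 4.95% in the PDE4D comparison. Against C57, however, the same probe set was only 1.21-fold lower in 4B(-/-) and 1.04-fold lower in 4D(-/-), since C57 lay between the knockouts and the wild-type lines.

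The third Prkar2b probe set (1430640_a_at) read 77.5 in C57, 147 in 4B(+/+), 122 in 4B(-/-), 156 in 4D(+/+) and 73.4 in 4D(-/-). It was again lower in each knockout than in its own wild type, by 1.21-fold and 2.12-fold. Unlike the other 2 it left 4B(-/-) above C57, by 1.57-fold, so the place of 4B(-/-) against C57 depended on the probe set.

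Some markers of tissues beside the lung, those of fat, of thyroid and neuroendocrine tissue and of skeletal muscle, had sums lower in each knockout than in its own wild type, like Prkar2b. Other lists ran otherwise, as the sums of cardiac muscle and of thymus and T cells were highest in 4B(-/-), at 23821 and 1780. Of 10 adipose markers 8 were measured and 7 reached the floor, and their summed intensity was 6456 in C57, 11025 in 4B(+/+), 9794 in 4B(-/-), 11097 in 4D(+/+) and 6414 in 4D(-/-). Among these 7, 3 were at least 1.5-fold lower in 4B(-/-) than in 4B(+/+) and 6 in 4D(-/-) than in 4D(+/+), where 0.930% and 4.53% of all genes were. Their median log2 differences were -0.21 and -1.85, beside 0.01 and 0.00 for all genes. All 4 thyroid, parathyroid and neuroendocrine markers over the floor, of 6 measured and 9 listed, were lower by as much in both comparisons, with medians of -3.48 and -1.99 and sums of 5242, 11099, 970, 16702 and 4301 in the order above. The third Prkar2b probe set ordered the 5 arrays as the adipose sum did. Both had 4D(-/-) and C57 close together at the bottom and 4D(+/+) at the top. Most of that sum was Lpl, at 4779 of 6456 in C57 and 5156 of 6414 in 4D(-/-). The median log2 difference of the 7 adipose markers in 4D(-/-) against C57 was -0.39, beside -0.02 for all genes. The other 2 Prkar2b probe sets had 4B(-/-) among the lowest, as the thyroid and neuroendocrine sum did. Of 8 neuron markers 7 were measured and 1, Stmn2, reached the floor, with 660 to 798. The skeletal muscle sum, given with Pkia below, was also higher in both wild-type lines than in C57, but it was higher in 4D(-/-) as well, at 7167 against 3606. It was lowest in 4B(-/-), although the median log2 difference of its 10 markers from C57 was 0.08 there, beside 0.01 for all genes. The Gapdh 3′ to 5′ ratio was lowest in the 2 wild-type lines and ordered the arrays inversely to the third Prkar2b probe set, which the Actb ratio did not. No marker was listed at 0, and the part of these tissues and of RNA quality in the Prkar2b difference was not tested. In such bulk tissue, fewer cells of a type and less RNA per cell cannot be told apart.

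PKI proteins bind free catalytic subunits as pseudosubstrates and carry them out of the nucleus. Pkia, the form best known from muscle and brain, read 457 in C57, 457 in 4B(+/+), 377 in 4B(-/-), 749 in 4D(+/+) and 458 in 4D(-/-) in its brightest probe set (1420859_at). Its other one (1420858_at) read 62.2, 87.1, 66.8, 131 and 57.1 in that order. Both were highest in 4D(+/+), and the dimmer was also higher in 4B(+/+) than in C57, by a log2 difference of 0.49, where the brightest was tied. Thus 4D(-/-) was 1.64-fold and 2.29-fold lower than its own wild type but close to C57. In the PDE4B comparison 4B(-/-) was lower by 1.21-fold in the brightest, with a log2 difference of -0.38 in the other. Skeletal muscle markers, all 10 over the floor, had summed intensities of 3606 in C57, 7467 in 4B(+/+), 3333 in 4B(-/-), 33301 in 4D(+/+) and 7167 in 4D(-/-), and all 10 were at least 1.5-fold lower in each knockout than in its own wild type. Their median log2 differences were -0.97 in 4B(-/-) and -2.46 in 4D(-/-). The muscle sum and both Pkia probe sets peaked in 4D(+/+), and the muscle sum and the dimmer probe set were higher in 4B(+/+) than in C57. The brightest Pkia probe set did not follow the muscle sum there. In 4D(-/-) neither probe set did, as 9 of 10 muscle markers were at least 1.5-fold higher than in C57. Pkia read 458 against 457 and 57.1 against 62.2 in these arrays. The part of muscle tissue in the Pkia difference was not tested.

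Pkig, the PKI form expressed in many tissues, read 1360 in C57, 884 in 4B(+/+), 907 in 4B(-/-), 997 in 4D(+/+) and 1093 in 4D(-/-) in its brightest probe set (1434820_s_at). C57 was high and the 4 lines lower, by 1.54-fold in 4B(+/+) and 1.24-fold in 4D(-/-) at the ends of the range. The other Pkig probe set also read highest in C57, at 730, and 549 to 691 in the lines, but was lowest in 4D(-/-) rather than 4B(+/+). Summed cartilage markers, 6 genes, ran the other way in C57, at 359 against 869 to 1582 in the lines, and the part of that tissue in the Pkig difference was not tested.

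**Figure D2:**
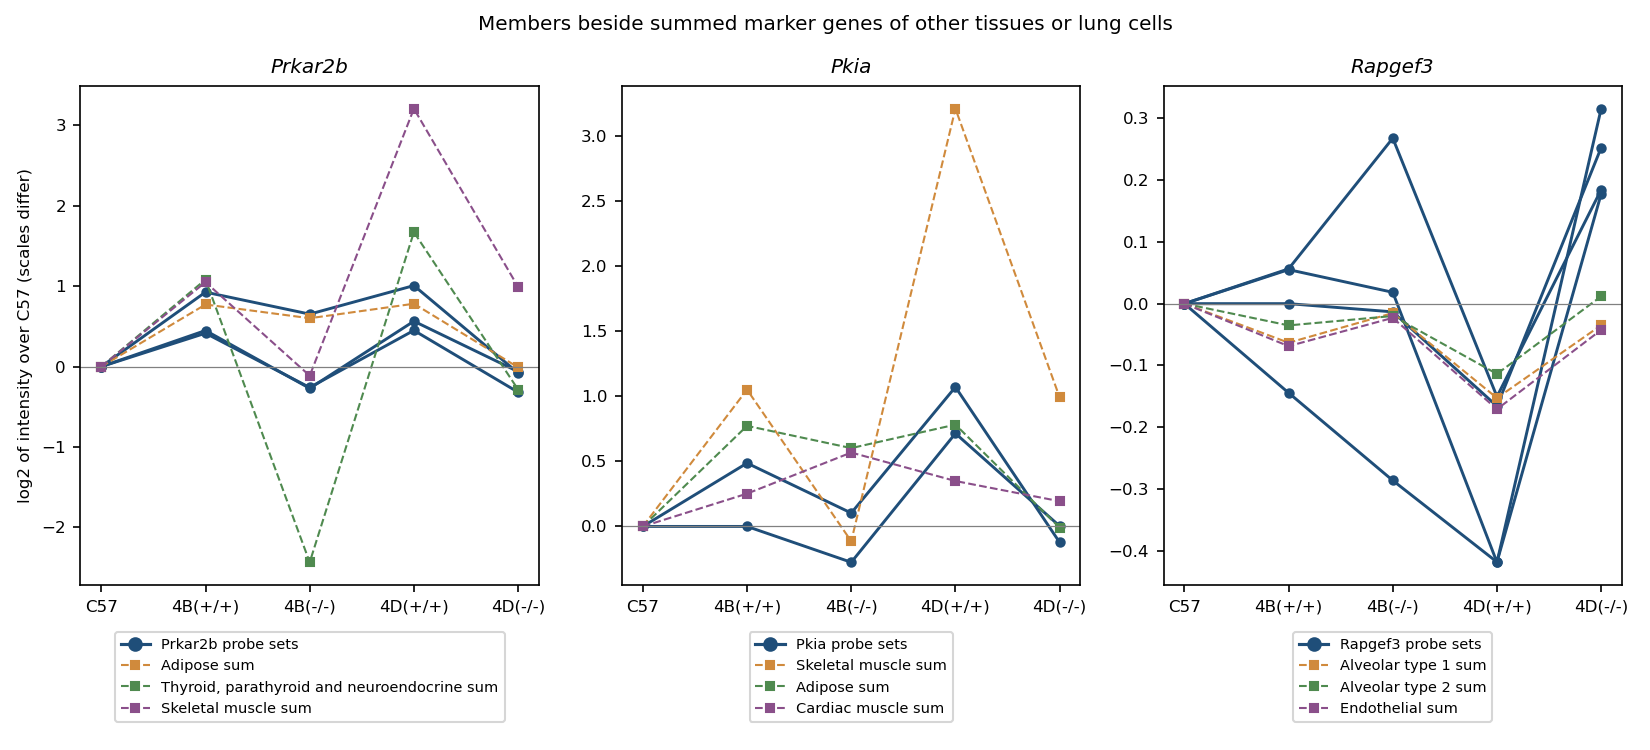
Log2 intensity over C57 in the 5 arrays for each probe set over the floor of Prkar2b, Pkia and Rapgef3 (solid lines) and for summed marker genes (dashed lines); vertical scales differ between panels. Pkia and the skeletal muscle sum peak in 4D(+/+), Prkar2b and the adipose sum are high in both wild-type lines, and Rapgef3 and the sums of alveolar type 2, alveolar type 1 and endothelial markers are lowest in 4D(+/+).

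Rapgef3 encodes EPAC1, the EPAC form of endothelium and many other cells. Its brightest probe set (1437946_x_at) read 261 in C57, 261 in 4B(+/+), 259 in 4B(-/-), 233 in 4D(+/+) and 311 in 4D(-/-). A second (1424470_a_at) read 259, 234, 212, 194 and 293, and a further one (1437012_x_at) 166, 173, 168, 124 and 207. In these 3 probe sets 4D(+/+) was lowest and 4D(-/-) highest, with the remaining arrays between. All 3 end in _x_at or _a_at, and the _x_at suffix marks probes that can match other transcripts. The fourth over the floor (1424471_at), the only one without such a suffix, read 204 in C57, 212 in 4B(+/+), 245 in 4B(-/-), 183 in 4D(+/+) and 231 in 4D(-/-), with 4B(-/-) highest instead. All 4 were higher in 4D(-/-) than in 4D(+/+), by 1.34-fold, 1.51-fold, 1.66-fold and 1.26-fold in the order given, and all 4 were higher than in C57, by 1.13-fold to 1.25-fold. In 4B(-/-) against 4B(+/+), 1 was higher and 3 lower, within 1.16-fold. Summed markers of endothelium, 8 genes, were 16955 in C57, 16165 in 4B(+/+), 16687 in 4B(-/-), 15060 in 4D(+/+) and 16463 in 4D(-/-), lowest where Rapgef3 was lowest and with a smaller spread. The club, ciliated and smooth muscle marker sums instead were lowest in 4D(-/-), where Rapgef3 was high. The Gapdh 3′ to 5′ ratio was lowest in 4D(+/+) and highest in 4D(-/-), at 1.31 and 1.77, while that of Actb was 1.83 and 1.86 in these arrays. The part of cell makeup and of RNA quality in the Rapgef3 difference was not tested.

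The comparisons were then read over the 9 genes, each by its brightest probe set. In 4B(-/-) against 4B(+/+), 0 members were higher and 1 lower by at least 1.5-fold, Prkar2b, where 0.383% of all genes were higher and 0.930% lower by as much. The members' log2 differences ran from -0.72 to 0.14 with a median of -0.06, beside a median of 0.01 for all genes. In 4D(-/-) against 4D(+/+), 0 were higher and 2 lower, Prkar2b and Pkia, where 1.10% of all genes were higher and 4.53% lower. Differences there ran from -0.71 to 0.42 with a median of 0.10, beside 0.00 for all genes, and 7 of 9 members were higher to some degree, Rapgef3 by the most. That median depended on the probe sets used, since with the median of each gene's probe sets it was -0.0064. That setting takes in probe sets under the floor and has 8 members, as Prkacb falls under the floor. Over the 22 probe sets above the floor the median was 0.09, from 13 above 0 and 8 below it. With 9 genes, counts of 1 and 2 name the genes but allow no reading of their share against the background.

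The calls rested on the wild-type lines. Against C57, 0 members passed 1.5-fold in 4B(-/-), where 6.10% of all genes did, and 0 in 4D(-/-), where 2.17% did. In 4B(+/+) against C57 the single member past 1.5-fold was Pkig, lower, where 2.23% of all genes were higher and 1.33% lower. In 4D(+/+) against C57 it was Pkia, higher, where 4.25% were higher and 1.24% lower, and Prkar2b was 1.36-fold and 1.48-fold higher than C57 in the respective wild-type lines. Comparisons with C57 share that array, so they are given side by side only.

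Counted by probe set instead of by gene, of the 22 over the floor 0 were higher and 2 lower in 4B(-/-) than in 4B(+/+), both of Prkar2b, where 1.22% of all probe sets passed either way. In 4D(-/-) against 4D(+/+), 2 of Rapgef3 were higher and 5 lower, all 3 of Prkar2b and both of Pkia, where 5.04% passed. In 4B(+/+) against C57, 1 was higher and 1 lower, where 3.45% passed, and in 4D(+/+) against C57 3 were higher and 0 lower, where 5.05% passed. Between 4B(-/-) and C57 1 was higher, the third of Prkar2b, where 6.19% passed, between 4D(-/-) and C57 0 passed beside 1.91%, and between 4B(-/-) and 4D(-/-) 1 was higher, again the third of Prkar2b, beside 5.94%. Probe sets of a gene share its RNA and are not separate observations of it.

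Each knockout was also placed against all 3 wild-type arrays. In 4B(-/-), 4 of 9 members lay below all 3, Prkaca, Prkar2a, Prkar2b and Pkia, where 20.9% of all genes did, and 1 lay above, Prkar1b, where 31.2% did. Past the nearest wild type the distance was 1.25-fold for Prkaca, 1.21-fold for Pkia and for Prkar2b, and 1.04-fold for Prkar2a. In 4D(-/-), 1 of 9 lay below, Prkar2b at 1.04-fold, where 31.6% of all genes did, and 3 lay above, Rapgef3 at 1.19-fold, Prkar2a at 1.05-fold and Prkar1b at 1.01-fold, where 20.7% did. Between the knockouts 0 members passed 1.5-fold, where 5.77% of all genes did. There 8 of 9 were lower in 4B(-/-) than in 4D(-/-), with a median log2 difference of -0.21 beside 0.03 for all genes, and the largest for Prkaca at 1.34-fold. That shift rested on the choice of the brightest probe set, since over the 22 probe sets the median was -0.07, from 13 below 0 and 9 above it. The median of each gene's probe sets, which leaves out Prkacb and takes in probe sets under the floor, gave 0.0024.

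**Figure D3:**
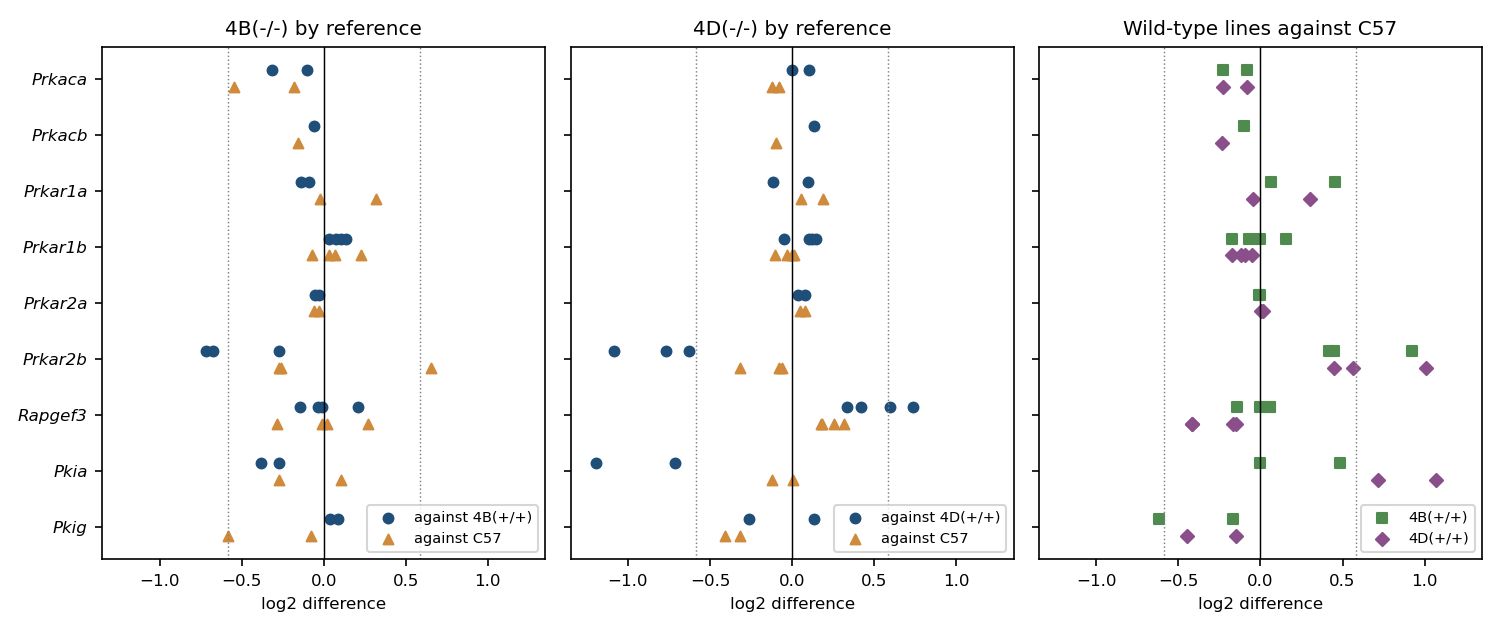
Log2 difference of every member probe set over the floor in 4B(-/-) and 4D(-/-) against the line's own wild type (circles) and against C57 (triangles), and in the wild-type lines against C57 (right); dotted lines mark 1.5-fold. Prkar2b circles lie left of their triangles in both knockouts, as do those of Pkia in 4D(-/-), and all 4 Rapgef3 circles lie right of 0 in 4D(-/-).

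The series' own filter looks for genes alike in C57 and 4D(+/+) and different in the other 3 arrays. Taken as at most 1.2-fold between the first pair and at least 1.5-fold from C57, the same way, in the others, 0 of 9 members passed it, where 0.0261% of all genes did.

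Genes whose values ran most like those of the 2 widest-ranging members were sought among 408 genes over the floor with a range of at least 2-fold, by Pearson correlation of log2 values over the 5 arrays, as a description only. For Pkia these were Acss2, Jph1, Rpl3l, Mylk4 and Pygm, with coefficients of 0.986 to 0.993. Acss2, the most alike, read 782 in 4D(+/+) against 378 to 496 in the other arrays. Pygm, the glycogen phosphorylase of muscle, and Jph1, a junctophilin of muscle triads, read 242 and 121 in 4D(+/+) against 96.4 to 121 and 38.3 to 52.8 in the other arrays. Jph1 and Rpl3l reached the floor only in 4D(+/+), where Pkia peaked, so that array alone made them candidates. For Prkar2b they were Pla2g7, Moxd1, Tnmd, Scg2 and Slc26a7, with 0.950 to 0.980. Pla2g7, a lipoprotein-associated phospholipase, read 160 in C57, 203 in 4B(+/+), 120 in 4B(-/-), 250 in 4D(+/+) and 154 in 4D(-/-), and Scg2 is also 1 of the neuroendocrine markers above. Moxd1 and Scg2 reached the floor only in the wild-type lines 4B(+/+) and 4D(+/+), where Prkar2b was high.

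Few partners of these sensors passed 1.5-fold between a knockout and its own wild type, as was true of genes in general. Over 6 lists of anchors, other PKA regulators, other cyclic nucleotide sensors, the CREB family, the Rap pathway and PKA substrates, 73 genes reached the floor. In 4B(-/-) against 4B(+/+), 0 were higher and 0 lower by at least 1.5-fold, where 0.383% and 0.930% of all genes were, and the list medians ran from -0.06 to 0.07 on the log2 scale. This included all 22 AKAP and related anchoring genes and all 20 genes of the Rap pathway. In 4D(-/-) against 4D(+/+), 0 were higher and 2 lower, both encoding PKA-regulated inhibitors of protein phosphatase 1, where 1.10% and 4.53% of all genes were, and the list medians ran from -0.07 to 0.20, the highest that of the CREB family. Ppp1r1a read 88.5 in C57, 94.0 in 4B(+/+), 98.6 in 4B(-/-), 163 in 4D(+/+) and 77.4 in 4D(-/-), which put it 2.11-fold lower in 4D(-/-) than in 4D(+/+), with the same single high array as Pkia. Ppp1r1b read 62.6, 78.4, 72.8, 87.2 and 56.1, and was 1.55-fold lower there.

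Partners past 1.5-fold from C57 are named after their values were seen. Crem, a CREB relative that yields an inducible repressor, read 138 in C57 and 225 to 261 in the 4 lines. Sik1, the kinase that restrains CREB coactivators, read 530 in C57 and 263 to 362 in the lines, and the anchor Akap5 1490 and 841 to 1176. In none of these 3 did the C57 value overlap the lines, but they were chosen for their distance from C57. The share of all genes for which this holds was not computed. The nearest line, 4D(-/-), was 1.46-fold under C57 for Sik1 and 1.27-fold for Akap5, short of the call. Of the 73 genes, 2 were higher and 3 lower in 4B(+/+) than in C57, and 2 higher and 2 lower in 4D(+/+), where 2.23% and 1.33%, and 4.25% and 1.24%, of all genes were. Besides the 3 above, Pde3b passed in both PDE4B lines, and Ppp1r1a, Wasf1, Pln and Tnni3 in 1 line each. Counts of this size among the 73 genes allow no reading against the background. Pln and Tnni3 passed in 4B(-/-), where 6 of 8 cardiac muscle markers, Tnni3 among them, were at least 1.5-fold higher than in C57. Their sums were 23821 against 16077, and 6.10% of all genes passed either way. The part of that tissue in the Pln and Tnni3 differences was not tested.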

How the data were processed

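The values the authors deposited are linear intensities, 1 for each probe set in each array, and RMA is named in the submitters' processing notes, with its version not given in the sources used here. Labelling with biotin started from 0.3 µg of total RNA, per the labels' protocols. Intensities were converted to log2. Probe sets with 1 gene symbol in the platform annotation (34958, with 932 of several and 9211 of none) were used, in Python 3.11.15 with pandas 2.3.3. Each gene took its brightest probe set, by mean log2, and was counted when at least 1 array reached 64. A 1.5-fold difference was the call, set beside the share of all genes that passed it. With 1 array per group no p-value was computed, and precision is limited by how few arrays there are. Alternatives were other folds and floors, other ways to pick a probe set, centring, cyclic loess (limma 3.58.1) and other references. The counting was tested on simulated data. Members, lists and thresholds were chosen with earlier results of these data known. Genes named were all members, the 5 most alike for 2 members, and list genes past 1.5-fold in a knockout against its own wild type, at most 4 a list, besides list genes past 1.5-fold from C57, which were chosen after their values were seen. No coordinates of probe sets are given, since the arrays name no build.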

Additional observations from a re-analysis of the deposited data

Results flagged for a closer look

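Prkaca and Rapgef3 went opposite ways in the 2 knockout comparisons, at least 1 of them past 1.2-fold. The log2 difference of Prkaca was -0.32 in the PDE4B comparison and 0.10 in the PDE4D comparison, which are 0.42 apart. That of Rapgef3 was -0.01 and 0.42, which are 0.43 apart. The direction of Rapgef3 in the PDE4B comparison was lost with other probe sets, at 0.21 for those without a suffix and 0.0043 for the median of the gene's probe sets, and the second Prkaca probe set was equal in the PDE4D comparison. With 1 array per strain each direction is that of a single pair of arrays, and the difference between the comparisons was not tested.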

How the results depend on the processing

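No paired analysis was possible because each strain had 1 array, and no replicate could be left out. Of 69 recomputed counts of members 53 stayed within 1.5 times, as did the filter's count of 0. The totals of counts, medians and differences given here include the alternatives with another floor or none. All members stayed over each of those floors, so these alternatives could only repeat the main values and check nothing. Of 55 medians 8 moved, and of 488 differences of single members 60 moved, by at least the standard deviation over the 3 wild-type arrays. A further 2 differences reversed, which was looked for only in those past 1.5-fold. Smaller differences that changed sign are not in that count, such as Prkar1a in the PDE4D comparison, at 0.0968 and, by the median of its probe sets, -0.115. That median takes in a Prkar1a probe set under the floor, and over the 2 above the floor the median difference was -0.0091. At a threshold of 2-fold the counts fell to 0 in 4B(-/-) and 4D(-/-) against their own wild types and in 4B(+/+) and 4D(+/+) against C57. In the 2 comparisons of a knockout with its own wild type, 0.409% and 1.72% of all genes passed 2-fold. At 1.3-fold the count was 1 in 4B(-/-), where 4.03% of all genes passed. It was 3 in 4D(-/-), with Rapgef3 added, where 14.4% did. At 1.3-fold the counts were also 2 in 4B(+/+), 3 in 4D(+/+) and 2 in 4B(-/-) against C57, and 1 between the knockouts. Counts of alternatives given without such a share are not read against all genes. With C57 as reference the knockout counts were 0 and 0, and the medians -0.16 in 4B(-/-) and 0.00 (0.0029) in 4D(-/-), where Pkia reversed to 0.0029. For 4D(-/-) the count was also 0 against all 3 wild-type arrays averaged, with a median of 0.04 (0.0415), and 0 against the mean of the other 2, an alternative added after seeing the data, with 0.0029 for the median and for Pkia, again reversed. For 4B(-/-) that last reference kept a count of 1, but of Pkia in place of Prkar2b, where 3.07% of all genes passed. Taking each gene's median probe set value in place of its brightest gave -0.0064 in 4D(-/-) against 4D(+/+), -0.0595 in 4B(-/-) against C57, 0.0024 between the knockouts and a count of 0 in 4B(+/+) against C57, where Pkig no longer passed. That setting takes in probe sets under the floor and leaves out Prkacb, whose median fell under it. Preferring probe sets without a suffix gave a median of -0.0776 between the knockouts. Cyclic loess gave 2 in 4D(+/+) against C57, adding Prkar2b, and 1 in 4B(-/-) against C57, Pkig, as did centring with 1. Prkar2b against its own wild type passed 1.5-fold under all 7 alternatives that kept that reference and fold in both lines, at -0.74 to -0.68 and -0.77 to -0.62, and Pkia did so in the PDE4D comparison, at -0.95 to -0.71. The other floors among these 7 only filter genes and cannot alter a gene's value, so those passes were fixed in advance. For Pkia, neither of whose probe sets has a suffix, preferring probe sets without one could change nothing either. Values near the floor of 64, such as those of the dimmer Pkia probe set, are poorly determined.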
